A study of Homo sapiens with 16 samples.

Results

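The SR proteins and the heterogeneous nuclear ribonucleoproteins (hnRNPs) are 2 large families of RNA-binding proteins that set how pre-mRNA is spliced. Genes whose symbol starts with HNRNP or SRSF were taken from the deposited table of translation ratios, without hyphenated or pseudogene names, where a ratio was given in every culture. Of 42 such rows, 33 were members, 21 HNRNP and 12 SRSF genes, among 15864 genes with a ratio in all 8 cultures and 28252 genes in the table. The rows left out were the readthrough gene HNRNPUL2-BSCL2, the pseudogenes HNRNPA1P10, HNRNPA1P33, HNRNPA3P1 and HNRNPKP3, and 4 genes that lacked a ratio in some or all cultures, HNRNPCL1, HNRNPCL2, HNRNPCL3 and HNRNPCL4.

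The cells were H9, an established human embryonic stem cell line, grown without feeder cells in mTeSR1 medium at 5% CO2. They received a negative control siRNA (NC) or an siRNA against the pluripotency factor OCT4 (siOCT4), and were kept at 20% oxygen (normoxia) or 1% oxygen (hypoxia), which made 4 groups of 2 cultures: control at 20%, siOCT4 at 20%, control at 1% and siOCT4 at 1%. Each culture gave 1 library from all its RNA and 1 from the RNA recovered with translating ribosomes and their nascent chains (RNC, ribosome-nascent chain complexes), 16 libraries in all. All groups are 1 cell line with a transient knockdown, and no label tells whether same-group cultures were separate dishes, so a p-value here reflects only how far these cultures spread, which may be technical.

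The value per gene and culture is the translation ratio, the RNC level over the RNA level. The table holds no levels of the single libraries, so a higher ratio can come from more RNC-bound mRNA or from less total mRNA, and the knockdown of OCT4 itself cannot be read from it. The depth is unknown, and the scaling between the 2 libraries of a culture is not given in the sources used here, so a ratio of 1 has no absolute meaning. A ratio was present in all 8 cultures for 10 of 10 stem cell marker genes, which says that their mRNA was detected but not at what level.

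SR proteins carry 1 or 2 RNA recognition motifs and a tail rich in arginine and serine, are phosphorylated by the SRPK and CLK kinases, and mostly bind exons and promote their inclusion. The hnRNPs coat nascent transcripts, and many of them repress nearby exons or splice sites. Genes of both families are known for making alternative transcripts with a premature stop codon or a retained intron, by which several of them limit their own protein, and SR proteins and hnRNPs also act in mRNA export and translation. In the GENCODE annotation, 25 of the 33 members had at least 1 transcript of the class that undergoes nonsense-mediated decay, against 41.1% of the 14192 coding genes tested. A retained-intron transcript was annotated for 23 members, against 55.4% of the coding genes tested. The ratio is given per gene and does not separate these transcripts.

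Base composition moved with these ratios over all genes. GC content of annotated transcripts accounted for 71.6% and 64.9% of the variance of the log2 ratio over genes in the 2 control cultures at 20% oxygen, and for 63.7% and 65.7% in the 2 siOCT4 cultures at 1% oxygen. In the other 4 cultures it accounted for 0.0737% to 13.9%. The members' transcripts are poor in G and C, with a median GC content of 43.8% against 50.2% for coding genes tested, from 38.0% in SRSF12 to 56.8% in HNRNPUL1. Each comparison is therefore given as deposited and after removing, within every culture, a smooth trend of the log2 ratio on transcript GC content. Named calls of members were also checked with the GC content of the coding sequence alone. Whether the GC trend arose in the cells or in the making of the libraries was not tested.

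Close relatives in these families differed in base composition to a degree that varied between the pairs of paralogs below. The sequences below are coding, in GENCODE release 29 on GRCh38, and are the middle 60 bases of the longest stretch without a gap in an alignment of the 2 coding sequences. HNRNPL (chr19:38844060-38845664, minus strand) and HNRNPLL (chr2:38582124-38583855, minus strand) encode related regulators that bind CA-rich RNA; both windows cross an intron, 64.47% of their aligned coding bases were identical, and their coding GC content was 57.85% and 43.95%. Capitals mark G and C.
HNRNPL: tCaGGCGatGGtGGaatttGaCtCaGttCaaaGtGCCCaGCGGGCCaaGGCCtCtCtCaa
HNRNPLL: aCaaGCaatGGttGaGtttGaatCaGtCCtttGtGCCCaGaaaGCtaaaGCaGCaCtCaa
HNRNPH1 (chr5:179618181-179618240, minus strand) and HNRNPH2 (chrX:101412608-101412667, plus strand) bind runs of G. They shared 87.07% of aligned coding bases, and their coding GC content was 47.78% and 47.7%. They are shown because reads of such near relatives may be shared between them. Capitals mark the bases that differ.
HNRNPH1: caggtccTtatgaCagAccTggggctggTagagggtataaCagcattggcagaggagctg
HNRNPH2: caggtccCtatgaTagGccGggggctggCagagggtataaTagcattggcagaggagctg
HNRNPA1 and HNRNPA1L2, its copy made by retrotransposition, shared 98.44% of aligned coding bases, and their coding GC content was 49.06% and 47.04%. HNRNPA1 also has 75 named pseudogenes, so the values of both genes are uncertain.

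The median ratio over the 33 members was 1.44 and 1.46 in the control cultures at 20% oxygen, 1.16 and 1.13 in siOCT4 at 20%, 1.21 and 0.992 in control at 1%, and 1.98 and 1.91 in siOCT4 at 1%. The medians over all 15864 genes were 1.14 and 1.20, 1.11 and 1.11, 1.02 and 1.02, and 1.35 and 1.31 in the same order. The members' median was highest in siOCT4 cells at 1% oxygen, and the members spread least in siOCT4 cells at 20%, from 0.635 and 0.627 (HNRNPU in both) to 1.51 and 1.36 (HNRNPH3 in both). The 2 cultures of a group differed by a median of 0.05 on the log2 scale over members in each siOCT4 group, and by 0.17 and 0.21 in control cells at 1% and 20%. SRSF12 had the widest gap in both control groups, 1.02 at 1% and 0.96 at 20%.

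**Figure D1:**
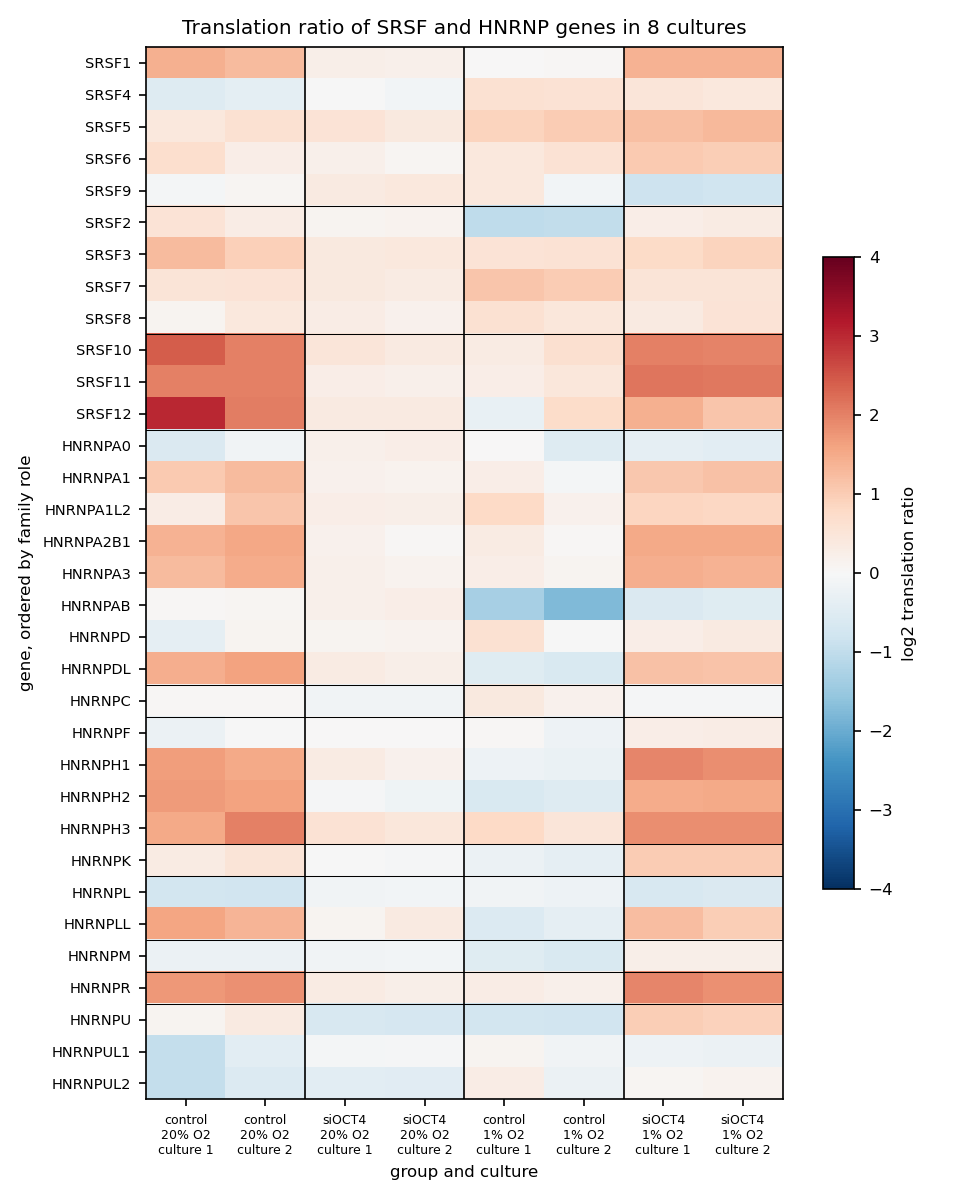
Log2 translation ratio of the 33 members (rows, ordered by family role, lines between roles) in the 8 cultures (columns, 2 per group); red is above and blue below a ratio of 1. SRSF10, SRSF11, SRSF12, HNRNPH1, HNRNPH2, HNRNPH3, HNRNPLL and HNRNPR, among others, are redder in control cells at 20% and siOCT4 cells at 1% oxygen than in the other groups. Ratios reach 8.09 in control cells at 20% and 4.36 in siOCT4 cells at 1%.

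Among SR proteins with a pair of RNA recognition motifs, SRSF1, a widely studied splicing activator, had ratios of 2.69 and 2.42 in control cells at 20% oxygen, 1.17 and 1.15 in siOCT4 at 20%, 1.02 and 1.04 in control at 1%, and 2.61 and 2.64 in siOCT4 at 1%. Its levels fell into 2 pairs of groups, with control at 20% and siOCT4 at 1% overlapping. SRSF9, the lowest of these 5 genes on average, had 0.955 and 1.05, then 1.29 and 1.34, then 1.33 and 0.932, and in siOCT4 at 1% only 0.566 and 0.573. SRSF5, the highest on average, had 1.34 and 1.54, 1.47 and 1.32, 1.84 and 2.01, and 2.28 and 2.46 in the same order of groups. Both groups at 1% oxygen lay above both groups at 20% for SRSF5. SRSF4 had 0.698 and 0.756, 0.997 and 0.933, 1.53 and 1.49, and 1.40 and 1.33, so that it too was higher at 1% in each siRNA group. SRSF6 had 2.07 and 1.99 in siOCT4 at 1% and lay between 1.06 and 1.58 elsewhere.

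Among SR proteins with a single motif, SRSF2, which binds both C-rich and G-rich exonic enhancers and is the lowest here on average, had 1.46 and 1.23 in control at 20%, 1.08 and 1.11 in siOCT4 at 20%, 0.493 and 0.501 in control at 1%, and 1.20 and 1.26 in siOCT4 at 1%. Control cells at 1% oxygen were apart from the other 3 groups. SRSF3, a small SR protein and the highest of this subgroup, had 2.38 and 1.93, 1.31 and 1.34, 1.45 and 1.49, and 1.71 and 1.85. SRSF7, which like SRSF3 couples splicing to mRNA export, had 1.44 and 1.46, 1.31 and 1.26, 2.15 and 2.02, and 1.42 and 1.43, and was highest in control cells at 1%. SRSF8 lay between 1.09 and 1.52.

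Among the 3 SR-like genes, SRSF12 had the highest ratio of all members in control cells at 20% oxygen, and SRSF11 in siOCT4 cells at 1%. In the other groups the highest was SRSF7 (control at 1%) or HNRNPH3 (siOCT4 at 20%). SRSF10, a splicing repressor when dephosphorylated and the highest of the 3 on average, had 5.41 and 4.09 in control at 20%, 1.40 and 1.29 in siOCT4 at 20%, 1.27 and 1.54 in control at 1%, and 4.02 and 3.97 in siOCT4 at 1%. SRSF11 had 4.01 and 4.03, 1.21 and 1.14, 1.21 and 1.37, and 4.36 and 4.33. SRSF12, the lowest of the 3 on average, had 8.09 and 4.17, 1.28 and 1.28, 0.810 and 1.65, and 2.67 and 2.18. In at least 1 culture the SRSF12 ratio was shared to within a relative tolerance of 2e-06 by at least 3 genes, and the same holds for HNRNPAB. Such a shared ratio occurred in 2 of the 33 members and in 7758 of the 15864 genes tested.

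Of the hnRNP A/B and D genes, HNRNPA2B1, an exon repressor and RNA transport factor with the highest mean of the 8, had 2.61 and 2.92, 1.11 and 1.04, 1.25 and 1.04, and 2.88 and 2.87 in the order control 20%, siOCT4 20%, control 1% and siOCT4 1%. HNRNPAB, the lowest, had 1.03 and 1.06, 1.16 and 1.20, 0.401 and 0.295, and 0.665 and 0.712. Both cultures of control cells at 1% were below every other culture for HNRNPAB. HNRNPA1, HNRNPA3 and HNRNPDL followed HNRNPA2B1 in being higher in both cultures of control at 20% and of siOCT4 at 1% than in any of the other 4, between 2.06 and 3.05 against 0.659 to 1.26. HNRNPA0, HNRNPA1L2 and HNRNPD ranged from 0.674 to 2.14 with no such separation.

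In the F/H group, which binds G runs, HNRNPH1 had 3.18 and 2.88, 1.26 and 1.13, 0.862 and 0.824, and 3.86 and 3.64, in that order of groups. HNRNPH2 had 3.26 and 3.03, 0.975 and 0.894, 0.661 and 0.692, and 2.81 and 2.87. HNRNPH3, the highest of this group on average, had 2.85 and 4.09, 1.51 and 1.36, 1.73 and 1.41, and 3.61 and 3.62. All 3 separated the same 2 pairs of groups. HNRNPF, the lowest, had 0.844 and 0.986, 1.01 and 1.01, 1.02 and 0.865, and 1.20 and 1.22.

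HNRNPL had 0.604 and 0.584, 0.910 and 0.918, 0.900 and 0.870, and 0.639 and 0.663, and its paralog HNRNPLL had 2.99 and 2.56, 1.07 and 1.29, 0.688 and 0.785, and 2.38 and 1.99. The paralogs were thus ordered in opposite ways: HNRNPL was lowest in the groups where HNRNPLL was highest. Among the U genes, HNRNPU, a scaffold protein of chromatin and the highest of 3 on average, had 1.09 and 1.27, 0.635 and 0.627, 0.602 and 0.587, and 1.98 and 1.91. HNRNPUL2, the lowest, had 0.517 and 0.691, 0.741 and 0.728, 1.23 and 0.853, and 1.06 and 1.11, and HNRNPUL1 had 0.520 and 0.750, 0.951 and 0.958, 1.07 and 0.915, and 0.866 and 0.843. HNRNPM, which binds GU-rich RNA, had 0.856 and 0.841, 0.899 and 0.923, 0.711 and 0.656, and 1.17 and 1.18. HNRNPC, which covers uridine tracts, stayed between 0.897 and 1.30. HNRNPK, a KH-domain protein of C-rich RNA, had 2.02 and 2.03 in siOCT4 at 1% and lay between 0.774 and 1.43 elsewhere. HNRNPR lay between 3.34 and 3.85 in control at 20% and siOCT4 at 1%, and between 1.14 and 1.25 in the other groups.

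The first comparison asked what siOCT4 changed at 20% oxygen. As deposited, 16 of 33 members fell and 3 rose (limma, adjusted p under 0.05), where 34.1% of all genes tested fell and 19.2% rose. The largest falls were in SRSF12 (4.54-fold, log2 difference -2.18 ± 0.44 SE, adjusted p = 0.00881) and SRSF10 (3.49-fold, -1.80 ± 0.19, adjusted p = 0.000912). SRSF12 missed the threshold after the transcript GC correction (-0.36, adjusted p = 0.477) and the coding GC correction (-0.89, adjusted p = 0.116). SRSF10 missed it after the first (-0.45, adjusted p = 0.0610) and passed it after the second (-0.54, adjusted p = 0.0262). HNRNPL (log2 difference 0.62 ± 0.13, adjusted p = 0.0108) and HNRNPUL1 (0.61 ± 0.21, adjusted p = 0.0487) rose, with SRSF4 (0.41 ± 0.12, adjusted p = 0.0335), and each of these 3 rises lost its call in some of the 8 fits that left out 1 culture (highest adjusted p 0.0741, 0.159 and 0.161). The members' median log2 difference was -0.46 against -0.09 over all genes.

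Most falls were those of members with AT-rich transcripts. The 19 members under 44% GC had a median log2 difference of -1.24 and the other 14 had 0.16, and over the 33 members the Spearman correlation of GC content with the log2 difference was 0.674, a description only, since these points share the same 4 cultures. After the transcript GC correction 9 members rose and 1 fell, where 7.43% and 7.74% of all genes did, and the members' median was 0.22. With the coding GC correction 5 rose and 6 fell, where 14.5% and 13.7% of all genes did, and the median was -0.055. SRSF1 was the 1 member that fell as deposited (2.21-fold, log2 difference -1.14 ± 0.12, adjusted p = 0.000949), after transcript GC correction (-0.97 ± 0.13, adjusted p = 0.0180) and after coding GC correction (-1.31, adjusted p = 0.00647). No member rose in all 3 analyses. Over all genes, 5.5% fell and 2.65% rose in all 3. None of the 10 corrected calls at 20% oxygen held in every fit that left out 1 culture: without either siOCT4 culture at 20%, the corrected adjusted p of SRSF1 reached 0.118.

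**Figure D2:**
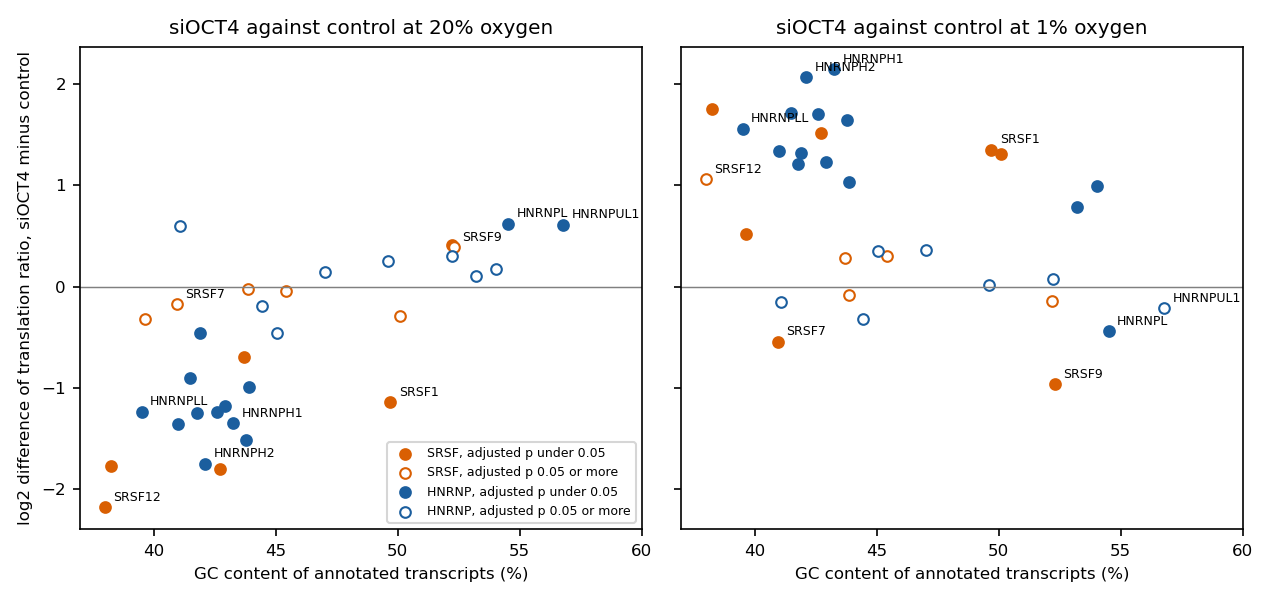
Log2 difference of the translation ratio, siOCT4 minus control, against GC content of annotated transcripts for the 33 members at 20% (left) and 1% oxygen (right), 1 point per gene; filled points had an adjusted p under 0.05. Members under 44% GC lie mostly below 0 at 20% and above 0 at 1%, while HNRNPL lies on the other side in both panels and SRSF1 and SRSF9 lie off the trend at 1%.

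The siOCT4 effect was next measured at 1% oxygen. As deposited, 18 members rose and 3 fell, where 41.1% of all genes rose and 19.9% fell, and the members' median log2 difference was 1.00 against 0.42. HNRNPH1 (4.45-fold, log2 difference 2.15 ± 0.13, adjusted p = 0.000303) and HNRNPH2 (4.20-fold, 2.07 ± 0.12, adjusted p = 0.000303) rose most. SRSF9 (1.95-fold, log2 difference -0.97 ± 0.19, adjusted p = 0.00642), SRSF7 (-0.55 ± 0.12, adjusted p = 0.00874) and HNRNPL (-0.44 ± 0.13, adjusted p = 0.0295) fell, the last with a call lost in 6 of 8 fits that left out 1 culture. The rises again lay with AT-rich transcripts, a median log2 difference of 1.32 for the 19 members under 44% GC and 0.19 for the other 14 (Spearman correlation -0.463).

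After the transcript GC correction 6 members rose and 10 fell at 1% oxygen, where 22.1% and 23.1% of all genes did, with a members' median of -0.28. The coding GC correction gave 8 rises and 7 falls, against 24.8% and 27.1% of all genes, with a median of 0.045. The 6 that rose had also risen as deposited and rose after the coding GC correction: SRSF1, SRSF2, HNRNPAB, HNRNPH1, HNRNPH2 and HNRNPM, 6 of 33 against 16.4% of all genes in all 3 analyses. Their log2 differences after the transcript GC correction were 0.85 for SRSF1, 0.86 for SRSF2, 1.10 for HNRNPAB, 0.73 for HNRNPH1, 0.52 for HNRNPH2 and 0.78 for HNRNPM. The adjusted p-values ran from 0.00301 to 0.0113. SRSF9 and SRSF7 fell in all 3 analyses, 2 of 33 against 12.7% of all genes. Their log2 differences after the transcript GC correction were -1.09 ± 0.17 (adjusted p = 0.00448) and -2.19 ± 0.16 (adjusted p = 0.00101). With the coding GC correction they were -0.78 and -1.45. Without either siOCT4 culture at 1%, the uncorrected call of SRSF7 (highest adjusted p 0.0519) and the corrected call of HNRNPH2 (0.0548) were lost.

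The oxygen comparison in control cells shares its reference cultures with the first comparison. Its cultures at 1% are also the reference of the siOCT4 comparison at 1%, so a fall here and a rise there can rest on the same values. As deposited, 18 members fell and 6 rose at 1% against 20% oxygen, where 39.6% of all genes fell and 20.5% rose, with a members' median of -0.72 against -0.31. SRSF12 (5.03-fold, log2 difference -2.33 ± 0.44, adjusted p = 0.00528) and HNRNPH2 (4.65-fold, -2.22 ± 0.12, adjusted p = 0.000155) fell most. SRSF12 missed the threshold after the transcript GC correction (-0.16, adjusted p = 0.715) and the coding GC correction (-0.88, adjusted p = 0.0845). SRSF4 (2.08-fold, 1.06 ± 0.12, adjusted p = 0.000748) and HNRNPUL2 (1.71-fold, 0.78 ± 0.23, adjusted p = 0.0286) rose most. Members under 44% GC had a median of -1.18 and the others 0.19 (Spearman correlation 0.493).

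In control cells 13 members rose and 5 fell after the transcript GC correction, where 23.3% and 22.9% of all genes did, with a members' median of 0.51. The balance turned with the coding GC correction, to 8 that rose and 9 that fell (27.2% and 24.8% of all genes) and a median of -0.0235. SRSF1, SRSF2, HNRNPAB and HNRNPH2 fell in all 3 analyses (4 of 33, with 15.3% of all genes), and SRSF4, SRSF5, SRSF7 and HNRNPUL2 rose in all 3 (4 of 33, with 12.7% of all genes). After the transcript GC correction HNRNPAB had the largest of these falls, 3.66-fold (log2 difference -1.87 ± 0.16, adjusted p = 0.000817). SRSF7 had the largest of these rises after that correction, 5.18-fold (2.37 ± 0.16, adjusted p = 0.000587). As deposited SRSF7 rose 1.44-fold (log2 difference 0.52), and after the coding GC correction its log2 difference was 1.25. With the coding GC correction SRSF2 fell more than HNRNPAB, and SRSF5 rose more than SRSF7. The uncorrected call of SRSF5 was lost in 7 of 8 fits that left out 1 culture (highest adjusted p 0.159). HNRNPUL2 lost its call in 6 of the 8, both as deposited (highest adjusted p 0.123) and after the transcript GC correction (0.128).

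In siOCT4 cells, 19 members rose and 3 fell at 1% against 20% oxygen as deposited, where 37.4% of all genes rose and 21.6% fell, with a members' median of 0.77 against 0.27. SRSF11 (3.70-fold, log2 difference 1.89 ± 0.13, adjusted p = 0.000683) and HNRNPH1 (3.15-fold, 1.65 ± 0.13, adjusted p = 0.000683) rose most. SRSF9 (2.30-fold, -1.20 ± 0.19, adjusted p = 0.00313) and HNRNPAB (1.71-fold, -0.78 ± 0.19, adjusted p = 0.0144) fell most, and HNRNPL was the third to fall (-0.49 ± 0.13, adjusted p = 0.0219). As deposited, the calls of HNRNPAB and HNRNPL were lost without any 1 of the 4 siOCT4 cultures (highest adjusted p 0.0823 and 0.117). Members under 44% GC had a median of 1.06 and the others 0.23 (Spearman correlation -0.562).

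In siOCT4 cells 6 members rose and 9 fell after the transcript GC correction, where 19.2% and 18.4% of all genes did, with a members' median of -0.24. The balance turned with the coding GC correction here too, to 10 that rose and 4 that fell (22.5% and 23% of all genes) and a median of 0.185. SRSF1, SRSF4, SRSF11, HNRNPH1 and HNRNPM rose in all 3 analyses (5 of 33, with 14.5% of all genes), and SRSF9 and HNRNPAB fell in all 3 (2 of 33, with 9.62% of all genes). SRSF9 kept its call with and without correction in every fit that left out 1 culture, with adjusted p-values of at most 0.0251 as deposited and 0.0391 corrected. The corrected calls of SRSF1, SRSF4, SRSF11, HNRNPH1, HNRNPM and HNRNPAB were each lost without either siOCT4 culture at 20%, and their highest adjusted p over the 8 fits was 0.0613, 0.0951, 0.131, 0.187, 0.116 and 0.149. As deposited, the rises of SRSF4 (highest adjusted p 0.0932) and HNRNPM (0.178) were also lost without any 1 siOCT4 culture.

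The interaction tests whether the siOCT4 effect differed between the 2 oxygen levels, and is the siOCT4 effect at 1% minus that at 20% on the log2 scale. As deposited it was positive for 20 members and negative for 4, where it was positive for 42.5% and negative for 26.2% of all genes, with a members' median of 0.98 against 0.49. HNRNPH2 (3.82 ± 0.18, adjusted p = 8.04e-05) and SRSF11 (3.53 ± 0.18, adjusted p = 8.04e-05) were highest, SRSF9 (-1.35 ± 0.27, adjusted p = 0.00544) and HNRNPL (-1.06 ± 0.19, adjusted p = 0.00324) lowest. The median was 2.61 for members under 44% GC and 0.04 for the others (Spearman correlation -0.589). After the transcript GC correction 6 members were positive and 11 negative, where 22.5% and 21.8% of all genes were, with a members' median of -0.50. With the coding GC correction the balance turned to 11 positive and 7 negative, where 26.5% and 28% of all genes were, and the median was 0.038.

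Positive in all 3 analyses were SRSF1, SRSF2, HNRNPAB, HNRNPH1, HNRNPH2 and HNRNPM, 6 of 33 against 14.9% of all genes, and negative in all 3 were SRSF4 and SRSF9, 2 of 33 against 11% of all genes. Both shares are near those of all genes. After the transcript GC correction SRSF1 had an interaction of 1.82 ± 0.19 (adjusted p = 0.00153), SRSF2 of 1.03 ± 0.18 (adjusted p = 0.00660) and SRSF9 of -1.31 ± 0.24 (adjusted p = 0.00772). SRSF1, SRSF2, SRSF9 and HNRNPH2 kept their interaction calls, as deposited and after the transcript GC correction, in all 8 fits that left out 1 culture. The remaining 4 lost a call in some of these fits, HNRNPH1 only when corrected (highest adjusted p 0.0585), HNRNPAB (0.108) and HNRNPM (0.0625) only when not corrected, and SRSF4 both ways (0.106 and 0.0755).

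**Figure D3:**
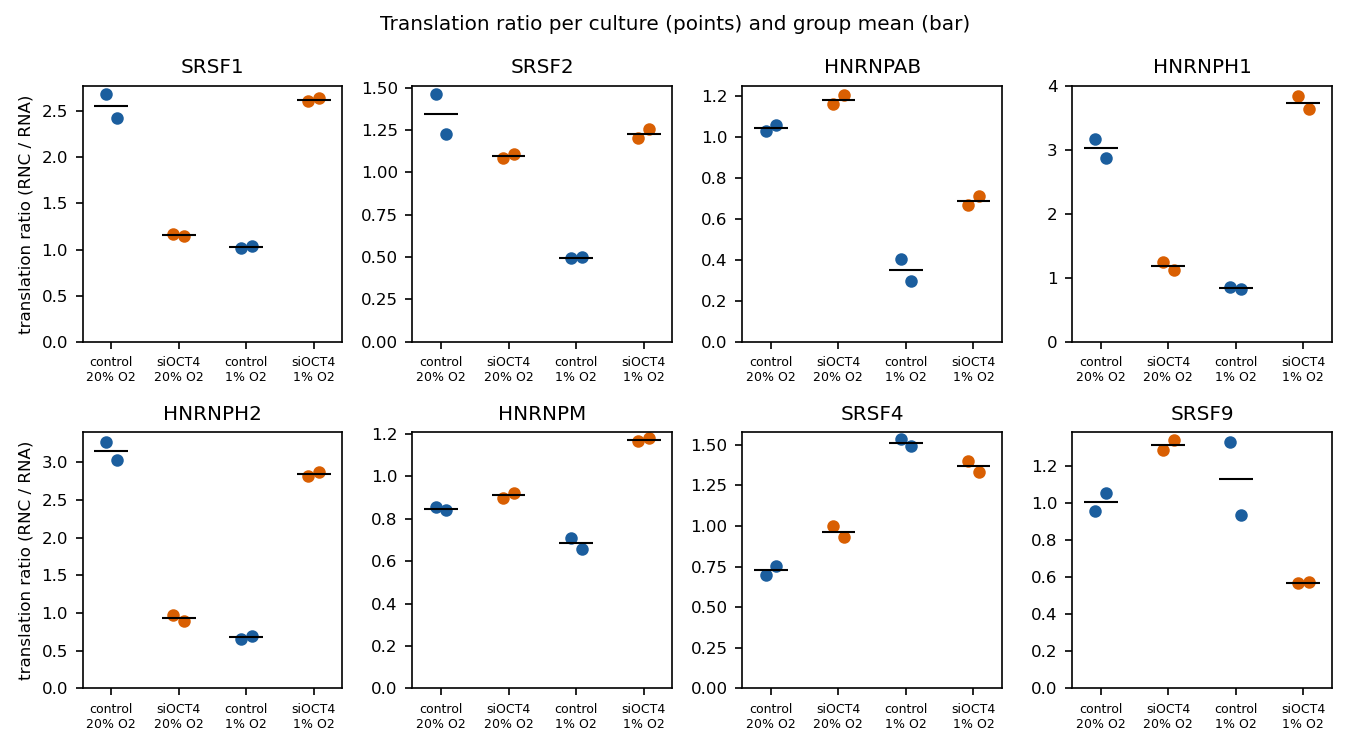
Translation ratio (RNC level over RNA level) of the 8 members whose interaction was called the same way in all 3 analyses; points are the 2 cultures of a group, bars their mean, blue control and orange siOCT4. SRSF1 falls with siOCT4 at 20% oxygen and rises with it at 1%, and SRSF9 is lowest in siOCT4 cells at 1%, at 0.566 and 0.573.

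Interaction calls became fewer over all genes too, from 42.5% positive and 26.2% negative as deposited to 22.5% and 21.8% after the transcript GC correction. The share of all genes that lost a call was not counted. For 13 other members the interaction call was lost with the transcript GC correction. Of these, SRSF10, SRSF12, HNRNPA1, HNRNPA2B1, HNRNPA3, HNRNPDL, HNRNPH3, HNRNPLL, HNRNPR and HNRNPU had interactions between 2.03 and 3.32 as deposited and between -0.64 and 0.60 after the transcript GC correction, where none passed the test. With the coding GC correction SRSF10 (0.68, adjusted p = 0.0194) and HNRNPR (0.94, adjusted p = 0.0141) passed it, and so did SRSF11 (1.57, adjusted p = 0.00101), which was at -0.04 after the transcript GC correction. HNRNPL and HNRNPLL, -1.06 and 2.80 as deposited, both had negative values after the transcript GC correction that missed the threshold, -0.50 (adjusted p = 0.0583) and -0.64 (adjusted p = 0.0722). With the coding GC correction HNRNPL passed it in its direction as deposited (-0.72, adjusted p = 0.0103), and HNRNPLL did not (-0.19, adjusted p = 0.500). HNRNPUL1 had -0.83 as deposited (adjusted p = 0.0454, a call lost in 7 of 8 fits that left out 1 culture), 0.16 after the transcript GC correction (adjusted p = 0.429) and -0.18 after the coding GC correction (adjusted p = 0.427). SRSF3 turned from 0.98 ± 0.21 (adjusted p = 0.00711) to -1.59 ± 0.16 (adjusted p = 0.00149), and HNRNPK from 1.78 ± 0.19 to -1.25 ± 0.28 (adjusted p = 0.0159, a call lost in 2 of 8 fits that left out 1 culture). With the coding GC correction neither passed the test (adjusted p = 0.325 and 0.298).

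The 2 corrections disagreed for some members whose coding GC content was well above that of their annotated transcripts. HNRNPA0 has a transcript GC content of 41.1% and a coding GC content of 64.5%, SRSF8 43.9% and 65.7%, and SRSF6 39.6% and 51.6%. Their interactions were -3.95, -2.58 and -2.58 after the transcript GC correction and 0.80, 1.59 and 0.04 after the coding GC correction, against -0.75, -0.06 and 0.84 as deposited. Which transcripts these cells used is not given in the sources used here, so no direction is stated for these 3 genes. SRSF2, at 50.1% and 66.8%, had a positive interaction after both corrections, but of unlike size, 1.03 and 3.31. Its oxygen effect in siOCT4 cells was -0.22 (adjusted p = 0.223) for transcript GC and 1.11 (adjusted p = 0.0360) for coding GC. SRSF5, SRSF7 and HNRNPC did not pass the interaction test as deposited, at 0.35, -0.37 and -0.13, and were negative after both corrections, at -1.70, -3.59 and -2.49 for transcript GC and -1.78, -1.94 and -2.0 for coding GC (adjusted p from 0.000596 to 0.00181). HNRNPD, HNRNPUL1, HNRNPUL2, HNRNPF and HNRNPA1L2 had no interaction call that both corrections shared.

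**Figure D4:**
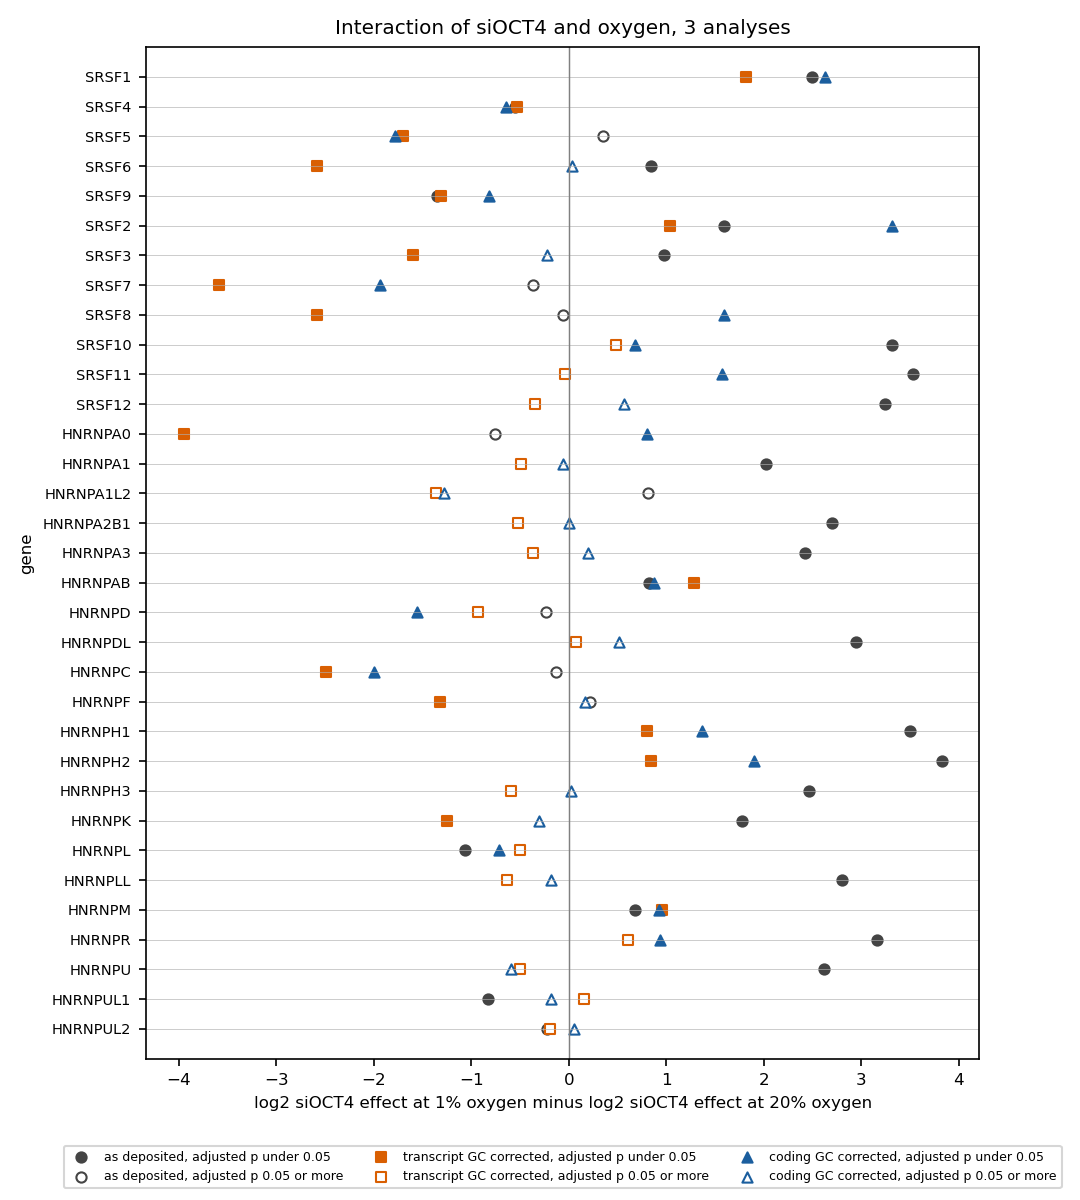
Interaction of siOCT4 and oxygen (log2 siOCT4 effect at 1% minus that at 20%) for the 33 members as deposited (circles) and after correction for transcript GC (squares) or coding GC content (triangles); filled symbols had an adjusted p under 0.05. SRSF1, SRSF4, SRSF9, SRSF2, HNRNPAB, HNRNPH1, HNRNPH2 and HNRNPM keep sign and call, while HNRNPA0 runs from -3.95 to 0.80.

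Other splicing genes were counted from 3 lists: SR-related proteins and SR kinases (17 of 17 with a ratio), other RNA-binding splicing regulators (38 of 40) and core spliceosome proteins (48 of 49). Only the transcript GC correction was used for these lists. Of the SR-related proteins and kinases, 10 fell and 2 rose with siOCT4 at 20%, and 12 rose and 0 fell at 1%, where 34.1% of all genes fell and 19.2% rose at 20%, and 41.1% rose and 19.9% fell at 1%. After the transcript GC correction 1 rose and 0 fell at 20%, and 7 rose and 1 fell at 1%, where 7.43% of all genes rose and 7.74% fell at 20%, and 22.1% rose and 23.1% fell at 1%. The same shares apply to the other 2 lists. SRPK1, the kinase that sends SR proteins into the nucleus, had an interaction of 4.27 ± 0.22 as deposited and 1.28 corrected (adjusted p = 0.00137), while BCLAF1, an SR-related protein, had 3.61 and 0.04 (corrected adjusted p = 0.825).

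Of the other regulators, 18 fell and 10 rose with siOCT4 at 20% and 22 rose and 5 fell at 1% (corrected, 5 fell and 8 rose, then 9 rose and 12 fell). MBNL1, a regulator of developmental splicing, had interactions of 4.83 ± 0.27 and, corrected, 1.20 (adjusted p = 0.00383), PTBP3, a paralog of the repressor PTBP1, 4.79 and 1.12 (adjusted p = 0.00454), and MATR3, a nuclear matrix protein, 4.62 and 1.35 (adjusted p = 0.00164). The spliceosome core was split, with 18 lower and 16 higher at 20% and 16 higher and 15 lower at 1%. After the transcript GC correction 2 were lower and 7 higher at 20%, and 3 higher and 26 lower at 1%, out of 48. Over all genes, 22.1% were higher and 23.1% lower at 1%. Whether these counts hold with the coding GC correction was not tested. SF3B1, of the U2 snRNP, ran against the corrected majority at 1%, with a corrected log2 difference of 0.97 (adjusted p = 0.00176).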

How the data were processed

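The deposited table holds, per gene and culture, a ratio that the authors computed as RNC level over RNA level. The build hg19 and edgeR are named per the submitters' processing notes; mapper, annotation, filters and library totals are not given in sources used here, so the depth per sample is unknown and no interval from counts can be given. Columns marked "sO" were read as siOCT4. The log2 ratio of 15864 genes with a ratio in all 8 cultures was modelled in R 4.3.3 by limma 3.58.1 with statmod 1.5.0 (trend, robust, 4 group means, 4 residual degrees of freedom). Tests were two-sided, p-values were adjusted by Benjamini and Hochberg's method across the genes tested, and 0.05 was the threshold.

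For the GC correction, the residual from a spline (6 degrees of freedom) on median transcript GC content was taken per culture for 15261 genes matched by symbol to GENCODE release 29 (GRCh38, basic-set transcripts, not the build of the ratios). The coding GC correction (14183 genes) and leaving cultures out of the corrected fits were added after the data were seen. Members and lists were chosen with earlier results of these data known. Every member is named. Ratios of all cultures are given for the 2 largest called rises and falls per comparison with groups that do not overlap (for the interaction, called only), for the lowest and highest mean of each role, and for SRSF1 and HNRNPM, added after their values were seen. Up to 3 genes per list are the largest called changes. Whether the numbers of the 2 cultures of a group pair them across groups is not given in the sources used here. The correlation of their differences ran from -0.23 to 0.02, which cannot show how the cultures were handled. The main model used no pairing. Where leaving out 1 culture left a lone one, its variance was assumed equal to that in other groups. The model was first run on simulated data with known changes. Figures were made with Python 3.11.15 and matplotlib 3.10.9, and alignments with biopython 1.88.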

Additional observations from a re-analysis of the deposited data

Results flagged for a closer look

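The siOCT4 effect differed between the oxygen levels, by the interaction test of limma, for 8 members with the same call as deposited and after the transcript GC correction. The same 8 passed with the coding GC correction as well, 6 of 33 positive and 2 of 33 negative, where 14.9% and 11% of all genes did so in all 3 analyses. The interaction, as deposited and then corrected, was 2.50 and 1.82 for SRSF1, 1.60 and 1.03 for SRSF2, 0.82 and 1.28 for HNRNPAB, 3.50 and 0.81 for HNRNPH1, 3.82 and 0.84 for HNRNPH2, and 0.68 and 0.95 for HNRNPM. It was -0.55 and -0.53 for SRSF4 and -1.35 and -1.31 for SRSF9. Adjusted p-values ran from 8.04e-05 to 0.0336 as deposited and from 0.00153 to 0.0184 corrected. In the same cultures the share of variance tied to GC content differed between groups, and its part in the uncorrected values was not tested beyond the corrections given.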

How the results depend on the processing

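Values follow the order siOCT4 at 20%, siOCT4 at 1%, oxygen in control cells, oxygen in siOCT4 cells, interaction. With the transcript GC correction 9, 6, 13, 6 and 6 members were higher, 1, 10, 5, 9 and 11 lower, and all 5 medians changed sign, to 0.22, -0.28, 0.51, -0.24 and -0.50. With GC content and length corrected 9, 6, 13, 7 and 7 were higher, 1, 10, 6, 8 and 11 lower, with medians of 0.22, -0.23, 0.51, -0.063 and -0.55. With coding GC content in place of transcript GC content the corrected counts were 5 higher and 6 lower (siOCT4 at 20%), 8 and 9 (control cells), 10 and 4 (siOCT4 cells) and 11 and 7 (interaction), and the medians turned to -0.055, 0.045, -0.0235, 0.185 and 0.038. These corrections differ by their construction in which bases they use. The share of all genes called is not given for the correction of GC content and length.

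Members called in opposite ways had these log2 values with the GC correction and with GC content and length: SRSF3 0.50 and 0.50 (siOCT4 at 20%), 0.84 and 0.81 (control cells), -0.76 and -0.75 (siOCT4 cells) and -1.59 and -1.57 (interaction). HNRNPK had 1.00 and 1.01 (siOCT4 at 20%), 0.99 and 0.97 (control cells) and -1.25 and -1.24 (interaction). SRSF6 had -1.19 and -1.38 (siOCT4 at 1%), -0.53 and -0.72 (siOCT4 cells) and -2.58 and -2.79 (interaction). SRSF11 had 0.51 and 0.51, and HNRNPU 0.78 and 0.79, in control cells. With the coding GC correction SRSF11 fell there as deposited (-0.67, adjusted p = 0.00572), while HNRNPU rose (0.84, adjusted p = 0.0124). The corrected HNRNPU call was lost in most fits that left out 1 culture, and that of SRSF3 at 20% in all of them. The interaction of SRSF11 changed sign without a call, to -0.036 and -0.024.

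Quantile normalization left 0 members higher and 3 lower with siOCT4 at 20%, 7 lower at 1%, 9 lower in control cells, 9 higher in siOCT4 cells and 13 higher in the interaction. The medians were -0.36, 0.26, -0.38, 0.29 and 0.73. It reversed SRSF3 (0.21, 0.43, -0.48 and -0.90 in the comparisons above) and SRSF6 (-0.48 at 1% and -0.32 in the interaction). Median centring gave 7 members lower at 1% and 7 negative interactions, with medians of -0.38 (20%), 0.62 (1%), 0.51 (siOCT4 cells) and 0.52 (interaction). A pseudocount of 0.1 moved the median at 20% to -0.42, and without the genes whose ratio recurs, SRSF12 and HNRNPAB among them, that at 1% was 0.78. Fitting only the groups compared left 0 members higher at 20% and 1 in control cells. The cause of these shifts was not tested. The share of all genes called is not given for these settings. The counts therefore cannot tell a shift of the members from a general loss or shift of calls.

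Whether the replicate numbers pair the cultures is not known. For the replicate block, too, the share of all genes called is not given. With the number as a replicate block, 1 member was higher with siOCT4 at 20%, 3 were higher in control cells and 2 had a negative interaction, and with the block and GC correction 2 were higher with siOCT4 at 20% and 3 in siOCT4 cells.

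Leaving out each culture in turn, at 20% 0 to 4 members were higher (0 without either siOCT4 20% culture, 1 without control 20% culture 1 or either siOCT4 1% culture), with a median of -0.55 to -0.42, and after GC correction 0 to 8 higher and 0 to 1 lower (0 without either siOCT4 20% culture, 2 higher without control 20% culture 1, 4 higher without either siOCT4 1% culture), with a median of 0.016 to 0.34. At 1%, 1 to 3 were lower (1 without either siOCT4 1% culture), with a median of 0.78 to 1.00 and a corrected one of -0.36 to -0.054. In control cells 3 to 6 were higher (3 without any 1 culture other than the second of either control group), with a corrected median of 0.30 to 0.65. In siOCT4 cells 1 to 4 were lower (1 without any 1 siOCT4 culture), with a median of 0.69 to 0.77, and after GC correction 0 to 6 were higher (0 without either siOCT4 20% culture, 1 without either siOCT4 1% culture) and 3 to 9 lower (5 without siOCT4 1% culture 1, 4 and 3 without siOCT4 20% culture 1 and 2), with a median of -0.26 to -0.19. For the interaction 2 to 5 were negative (2 in the same 6 fits as in control cells), with a median of 0.92 to 1.21. Of the calls as deposited, 14 of 19, 18 of 21, 20 of 24, 17 of 22 and 19 of 24 held in all 8 such fits, and of the corrected calls 0 of 10, 13 of 16, 13 of 18, 3 of 15 and 14 of 17. Limma without trend and robust settings moved no count or median past these limits. Depth is unknown, so no minimum level could be set. Shares of all genes called are not given for the fits that left out 1 culture.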
